A study of Acomys cahirinus and Mus musculus with 6 samples.

Results

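A set of 10 contractile genes was followed across every annotated cell type and library of a single-cell RNA data set from healing ear skin. The genes were Acta2, Tagln, Myl9, Cnn1, Cnn2, Tpm1, Tpm2, Actg2, Myh11 and Cald1, 10 of the 20381 genes in the count table. They were listed by name as genes of smooth muscle, mural cells and contractile myofibroblasts, by a rule that used no measured value. The list was chosen with earlier results of these data known. Ear pinna skin with a healing ear punch was taken from the spiny mouse Acomys cahirinus (strain given as wild-type) and from the CD1 strain of the house mouse Mus musculus. In the spiny mouse, 1 library each came from wounds injected from day 12 to day 15 with an ERK inhibitor, an ErbB2 inhibitor, an FGFR1/2/3 inhibitor or DMSO. In the mouse, 1 library each came from wounds implanted at day 10 with micro-beads soaked in FGF2/Nrg1 or in PBS. The sources used here do not state age, sex, the number of animals per library or the compounds' names. The series asks, by its title, about ERK signalling, fibrosis and regeneration, and every ratio below was computed within a species, with values of the species set side by side untested.

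With 1 library per group there was no replicate, so no test was run and no difference below can be set against a spread between animals. The libraries held 39577 cells, 31408 of the spiny mouse and 8169 of the mouse. The ERK inhibitor library had 631 cells, against 3065 to 15363 in the other libraries, and its values in stromal classes rest on 4 or 5 cells each. Median unique molecular identifiers (UMIs, counts of captured RNA molecules) per cell lay between 3125 and 6915 across the libraries. Pairs of libraries shared 0 to 49 cell barcodes. Levels below are CPM, the gene's UMIs per 1000000 UMIs of all cells of a class in a library, and their 95% intervals are exact Poisson intervals that cover counting error only. Levels are called within counting error of each other where their intervals overlap.

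Smooth muscle contraction is driven by myosin II filaments pulling on actin filaments, and tropomyosin, caldesmon and calponin sit along the actin filament and regulate that pull. Vascular smooth muscle and pericytes, together called mural cells, wrap blood vessels and carry much of this apparatus. Fibroblasts of a contracting wound can take up a part of it and are then called myofibroblasts, for which smooth muscle actin, the product of Acta2, is the customary marker.

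Because both species carry mouse gene symbols in the count table, the likeness of related genes bears on which gene a read is given to. Acta2 lies at chr19:34241090-34255590 on the minus strand of GRCm38, and Actg2, the enteric smooth muscle actin, at chr6:83512905-83536265 on the minus strand. Their coding sequences, without the stop codon, were 83.8% identical over 1128 aligned bases. The last 120 coding bases of each in the mouse are shown because Actg2 was listed at 0 in every spiny mouse cell while Acta2 was abundant. Capitals mark the 19 positions at which the 2 genes differ, and the sequences are from GENCODE vM21 transcripts, 5′ to 3′ along the gene.
Acta2: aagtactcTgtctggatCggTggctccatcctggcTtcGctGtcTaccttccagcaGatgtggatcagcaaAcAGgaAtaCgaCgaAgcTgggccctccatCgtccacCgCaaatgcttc
Actg2: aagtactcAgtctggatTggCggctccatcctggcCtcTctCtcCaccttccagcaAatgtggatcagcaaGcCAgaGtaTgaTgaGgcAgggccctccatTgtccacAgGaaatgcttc

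The longest run that the 2 actins share was 29 bases in the coding part and 7 bases in the 3′ untranslated region, the end that a 3′ assay reads. Myl9 (chr2:156775420-156781658, plus strand) was 86.4% identical to Myl12b and 85.7% to Myl12a over 516 coding bases, with longest shared 3′ runs of 8 and 9 bases. Myh11 (chr16:14194535-14291372, minus strand) shared a coding run of 65 bases with each of the non-muscle myosins Myh9 and Myh10. The other members lie at chr9:45929619-45936058, minus strand (Tagln), chr9:22099216-22109630, plus strand (Cnn1), chr10:79988584-79996062, plus strand (Cnn2), chr9:67022590-67049406, minus strand (Tpm1), chr4:43514711-43523765, minus strand (Tpm2) and chr6:34598500-34775473, plus strand (Cald1). These are mouse sequences, and the spiny mouse genome was not used here.

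The highest level of 8 members in the spiny mouse and of 9 in the mouse was in cluster 38, a group of 311 cells that the authors' annotation places under dermal sheath and papilla. Its leading genes held more mural markers than dermal sheath markers. In the spiny mouse, 4 of the 10 genes most raised in cluster 38 over other cells were mural markers, led by Rgs5, Higd1b, Kcnj8 and Abcc9, and in the mouse 5 of 10 were. Pdgfrb, a receptor gene on the mural list that is not particular to mural cells, had 15, 720, 356 and 515 UMIs in cluster 38 of the ERK inhibitor, ErbB2 inhibitor, FGFR inhibitor and DMSO libraries. It had 155 UMIs under FGF2/Nrg1 and 120 under PBS. The fibroblast list was not absent: Col1a1 had 1113 UMIs, Col1a2 1748, Col3a1 1930 and Dcn 118 over the 6 libraries, while the receptor Pdgfra had 1. The endothelial cadherin Cdh5 had 0. Of the dermal sheath and arrector pili list, Acan had 3, Npnt 11, Ccn3 11, Itga5 17 and Itga8 107. Des, which is on that list and on the mural list, had 740 and was among the 10 leading genes in the mouse. The cluster is therefore called by its number. Myh11, Kcnmb1, Lmod1 and Acta2 were also among its 10 leading genes in the spiny mouse, and as all genes shaped the clusters, its contractile levels are descriptions.

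Of the authors' 2 fibroblast clusters, cluster 32 was led by matrix genes such as Cpxm1, Lum, Cthrc1 and Col1a1 in the spiny mouse, alongside Nefl and Penk. In the mouse it was led by Coch, Cxcl5, Gria1 and Crabp1, with 0 of the fibroblast list among its 10 leading genes. Cluster 34 was led by tendon and skeletal muscle genes in the spiny mouse (Tnmd, Myh2, Actc1, Neb) and by Schwann cell genes in the mouse (Sox10, Foxd3), so it is not described as fibroblasts. The ERK inhibitor library had 4, 5 and 4 cells in clusters 38, 32 and 34. The ErbB2 inhibitor library had 58, 131 and 143, the FGFR inhibitor library 59, 38 and 59, and the DMSO library 99, 161 and 136. The FGF2/Nrg1 library had 55, 153 and 66, and the PBS library 36, 32 and 48.

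**Figure D1:**
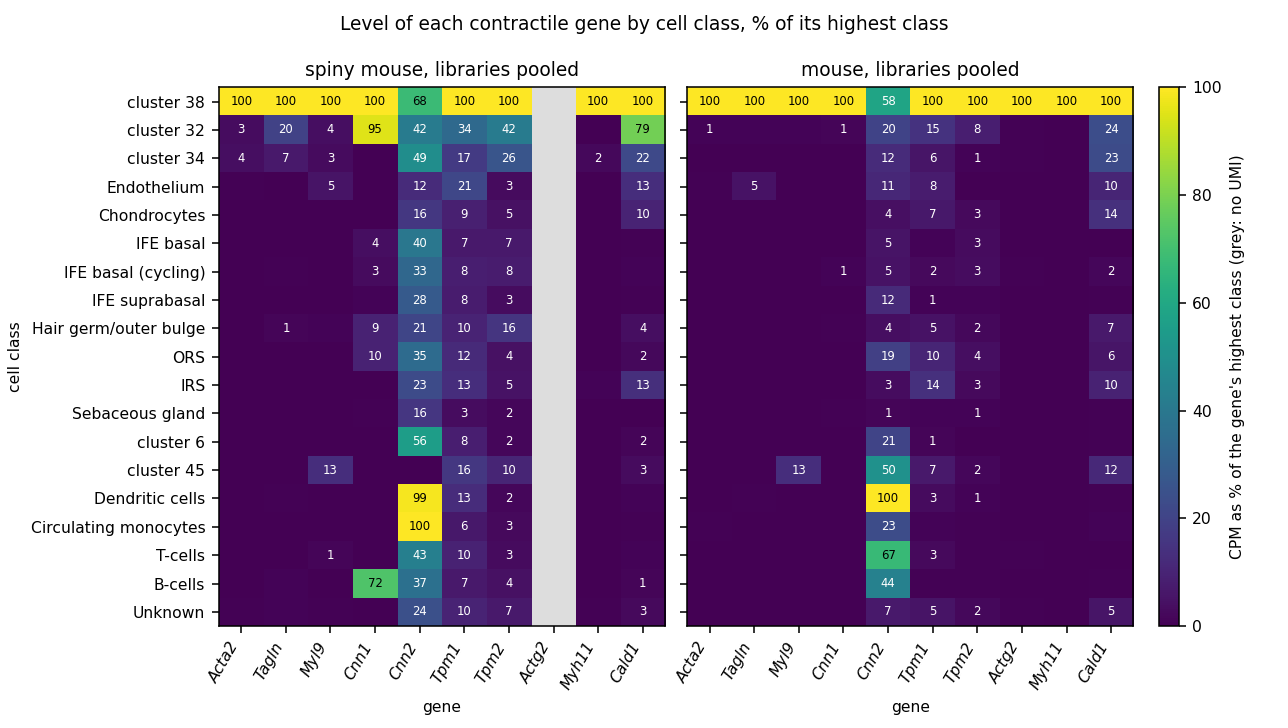
Level of each of the 10 genes in each cell class, pooled over the libraries of a species, as a percent of the gene's level in the class where it was highest. Cluster 38 held the highest level of 8 genes in the spiny mouse and of 9 in the mouse. Cnn2 was highest in immune cells in both, but in the spiny mouse within counting error of cluster 38. Grey marks Actg2, which had no UMI in the spiny mouse.

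Among the actins, Acta2 encodes the smooth muscle alpha actin of vascular muscle and myofibroblasts. In cluster 38 it had 170, 469, 508 and 875 UMIs in the ERK inhibitor, ErbB2 inhibitor, FGFR inhibitor and DMSO libraries, or 12876, 2951, 4299 and 3795 CPM. In the mouse it had 1614 UMIs under FGF2/Nrg1 and 2112 under PBS, or 8283 and 13152 CPM. Every library thus carried it there at 2951 CPM or more, and the 4 cells of the ERK inhibitor library stood highest in the spiny mouse. Pooled over a species, the next classes were far lower. Cluster 38 had 3882 CPM in the spiny mouse, and clusters 34 and 32 had 139 (interval 112 to 172) and 130 (116 to 144), which do not differ beyond counting error. In the mouse, cluster 38 had 10483 CPM, cluster 32 had 122 (108 to 138), circulating monocytes 51.2 (39.5 to 65.4) and endothelium 50.4 (45.1 to 56.1), the last pair again within counting error of each other. Circulating monocytes is the authors' label for cluster 7. Its leading genes included the neutrophil genes Retnlg, Ly6g, S100a8 and S100a9 in the mouse, and Ngp and Cxcr2 in the spiny mouse.

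Acta2 was read in 100%, 79.3%, 89.8% and 77.8% of cluster 38 cells in the ERK inhibitor, ErbB2 inhibitor, FGFR inhibitor and DMSO libraries, in 83.6% under FGF2/Nrg1 and in 94.4% under PBS. T cells, which should lack the gene, gave 0%, 0.781%, 2.73%, 0.602%, 1.47% and 0% in the same order of libraries. Their median UMIs per cell were 4184, 1937, 2080, 1399.5, 2308.5 and 3114.5, against 2437.5, 2321.5, 1437, 1773, 2628 and 2989 in cluster 38. The shares in cluster 38 were therefore far above this background at similar depth.

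Actg2, the gamma actin of gut and other visceral smooth muscle, had UMIs in the mouse libraries and 0 in those of the spiny mouse. In cluster 38 it had 53 UMIs under FGF2/Nrg1 and 78 under PBS, or 272 and 486 CPM, and was read in 34.5% and 41.7% of the cells, against 0.735% of T cells under FGF2/Nrg1 and 0 of 36 under PBS. Pooled over both libraries, the other mouse classes lay at 2.85 CPM or less. In the spiny mouse it was listed at 0 in all 4 libraries, and 0 of the 520880 UMIs of cluster 38 allows at most 7.08 CPM by the exact Poisson interval. A gene that was not transcribed and one whose reads were not counted under the mouse name cannot be told apart. Acta1, the skeletal muscle actin, had 0 UMIs in cluster 38 of every library.

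Of the myosin genes, Myh11, the heavy chain of smooth muscle myosin, was the most narrowly held member. In cluster 38 it had 10, 70, 71 and 86 UMIs in the ERK inhibitor, ErbB2 inhibitor, FGFR inhibitor and DMSO libraries (757, 440, 601 and 373 CPM), and 319 under FGF2/Nrg1 and 462 under PBS (1637 and 2877 CPM). Outside cluster 38 the highest pooled level was 9.5 CPM in cluster 34 of the spiny mouse and 3.03 CPM in cycling basal keratinocytes of the mouse. Cluster 32 held 1 UMI of Myh11 over all 6 libraries. T cells held 1 UMI, in the DMSO library.

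Myl9, the regulatory light chain that is phosphorylated to start contraction, had 68, 220, 198 and 271 UMIs in cluster 38 of the ERK inhibitor, ErbB2 inhibitor, FGFR inhibitor and DMSO libraries (5150, 1384, 1676 and 1175 CPM). It had 460 under FGF2/Nrg1 and 544 under PBS (2361 and 3388 CPM). Endothelium carried it in the spiny mouse, at 15.6, 64.8, 123 and 75.9 CPM in the ERK inhibitor, ErbB2 inhibitor, FGFR inhibitor and DMSO libraries. Mouse endothelium had 10.8 CPM under FGF2/Nrg1 and 2.43 under PBS.

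The tropomyosins, which lie in the groove of the actin filament, were broad. Tpm1 had 4696, 2108, 2827 and 2173 CPM in cluster 38 of the ERK inhibitor, ErbB2 inhibitor, FGFR inhibitor and DMSO libraries, 3531 under FGF2/Nrg1 and 3786 under PBS. Pooled over the spiny mouse it had 2365 CPM in cluster 38, 807 in cluster 32, 503 in endothelium and 399 in cluster 34. In the mouse it had 3646 CPM in cluster 38, and cluster 32 (530, interval 499 to 562) and inner root sheath cells (507, 485 to 529) did not differ beyond counting error. Tpm2 had 3863, 824, 1989 and 993 CPM in cluster 38 of the ERK inhibitor, ErbB2 inhibitor, FGFR inhibitor and DMSO libraries, 4255 under FGF2/Nrg1 and 5966 under PBS. Its next classes in the spiny mouse were cluster 32 (515 CPM), cluster 34 (326) and hair germ and outer bulge keratinocytes (193). In the mouse they were cluster 32 (420), the outer root sheath (178) and cycling basal keratinocytes (161), the last pair within counting error of each other.

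Tagln encodes transgelin, an actin-bundling protein used as a smooth muscle marker. In cluster 38 it had 249, 391, 536 and 785 UMIs in the ERK inhibitor, ErbB2 inhibitor, FGFR inhibitor and DMSO libraries (18859, 2460, 4536 and 3405 CPM). It had 842 under FGF2/Nrg1 and 891 under PBS (4321 and 5548 CPM). After cluster 38, other classes followed in each species. In the spiny mouse cluster 32 followed with 744 CPM and cluster 34 with 255, and endothelium was at the level of free RNA. In the mouse endothelium followed with 232 CPM and cluster 32 with 47.0. Hair germ and outer bulge keratinocytes of the spiny mouse had 45.8 CPM.

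Cald1 encodes caldesmon, whose long form marks smooth muscle and whose short form is found in many cells, and a 3′ count does not tell them apart. In cluster 38 it had 1818, 1409, 1735 and 1301 CPM in the ERK inhibitor, ErbB2 inhibitor, FGFR inhibitor and DMSO libraries, 1909 under FGF2/Nrg1 and 2373 under PBS. Its pooled levels in the spiny mouse were 1446 CPM (1344 to 1553) in cluster 38 and 1139 (1098 to 1181) in cluster 32, which differ beyond counting error. In the mouse cluster 38 had 2119 CPM, cluster 32 had 501 and cluster 34 had 484, the last pair within counting error.

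The calponins had unlike values. Cnn1, the smooth muscle calponin, had 41 UMIs under FGF2/Nrg1 and 48 under PBS in mouse cluster 38 (210 and 299 CPM), in 30.9% and 38.9% of the cells and in 0 T cells of either library, and 3.32 CPM at most elsewhere in the pooled mouse classes. Over the 4 spiny mouse libraries it had 3 UMIs in cluster 38, 2 in the ErbB2 inhibitor library and 1 in the DMSO library, so it was at or near 0 there, and its pooled 5.76 CPM lay within counting error of the 5.48 CPM of cluster 32. Cnn2, a calponin of non-muscle and immune cells, had its highest level outside cluster 38, though in the spiny mouse only within counting error. In the mouse it was highest in dendritic cells (573 CPM, 458 to 709) and T cells (385, 330 to 448), and cluster 38 (335, 277 to 401) did not differ from T cells beyond counting error. In the spiny mouse no class exceeded 22.6 CPM, in the neutrophil-like cells labelled circulating monocytes. Cluster 38 had 15.4 CPM from 8 UMIs, which does not differ from that beyond counting error.

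The share of each gene's UMIs that came from cluster 38 set the members apart. For Myh11 it was 100%, 71.4%, 74.0% and 72.3% in the ERK inhibitor, ErbB2 inhibitor, FGFR inhibitor and DMSO libraries, 91.9% under FGF2/Nrg1 and 98.3% under PBS. For Acta2 it was 98.3%, 62.5%, 63.7% and 66.6% in the spiny mouse libraries in the same order, 68.0% under FGF2/Nrg1 and 91.5% under PBS. For Tpm1 it was no more than 5.93% in the spiny mouse libraries, 10.3% under FGF2/Nrg1 and 20.7% under PBS. The 7 keratinocyte classes gave 69.6%, 76.2%, 80.2% and 73.6% of Tpm1 in the ERK inhibitor, ErbB2 inhibitor, FGFR inhibitor and DMSO libraries, 36.2% under FGF2/Nrg1 and 54.1% under PBS. These shares move with how many cells of each class a library holds. In DMSO, suprabasal and basal interfollicular keratinocytes alone held 22393816 and 17170187 of the library's 70058081 UMIs.

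Tagln was split between classes. Cluster 38 gave 86.5%, 21.4%, 37.9% and 40.6% of it in the ERK inhibitor, ErbB2 inhibitor, FGFR inhibitor and DMSO libraries, and cluster 32 gave 2.08%, 53.3%, 26.2% and 28.3%. Under FGF2/Nrg1 cluster 38 gave 39.8%, endothelium 50.8% and cluster 32 gave 3.68%. Under PBS cluster 38 gave 62.8%, endothelium 31.4% and cluster 32 gave 1.48%. The 7 keratinocyte classes together gave 9.03%, 15.9%, 32.6% and 22.2% of Tagln in the ERK inhibitor, ErbB2 inhibitor, FGFR inhibitor and DMSO libraries. They gave 3.54% under FGF2/Nrg1 and 2.75% under PBS. In the FGFR inhibitor library they thus held more of it than cluster 32. Cluster 32 was thus the first carrier of Tagln under the ErbB2 inhibitor and endothelium under FGF2/Nrg1, while cluster 38 was the first in the other 4 libraries.

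**Figure D2:**
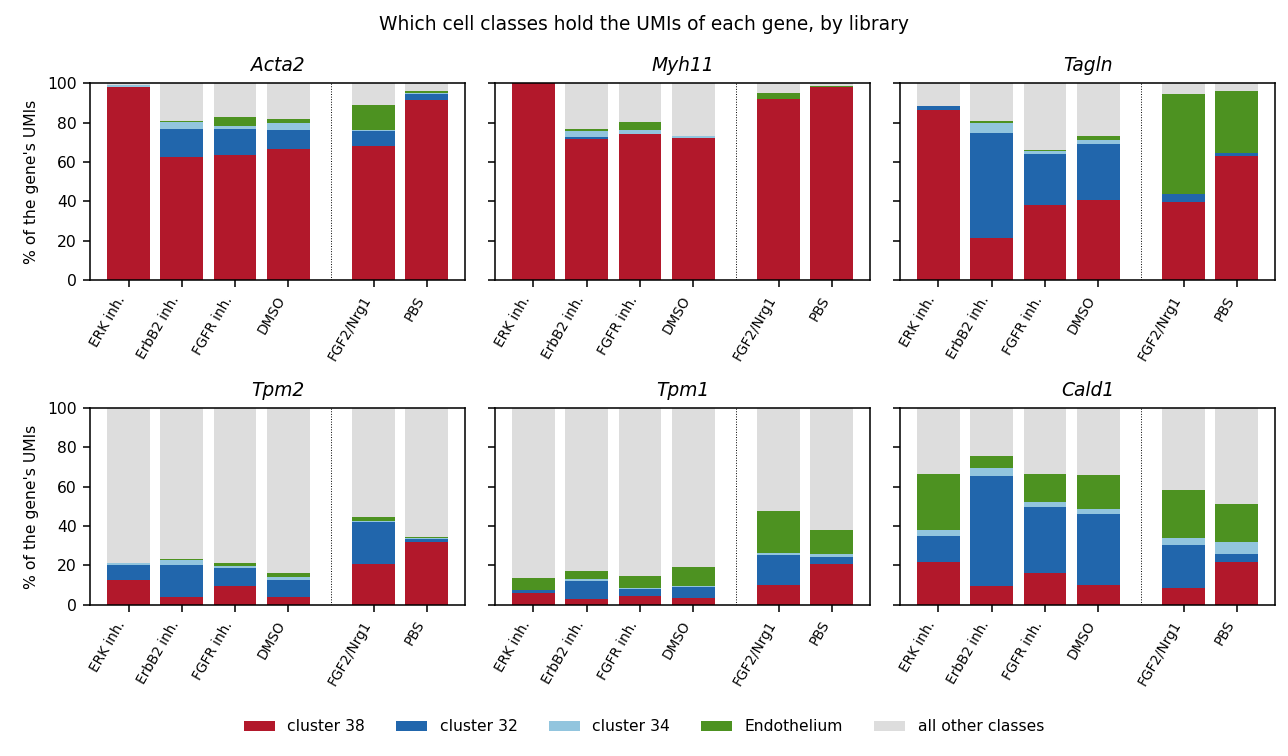
Percent of the UMIs of Acta2, Myh11, Tagln, Tpm2, Tpm1 and Cald1 in each library that came from cluster 38, cluster 32, cluster 34, endothelium and all other classes. Myh11 and Acta2 came mostly from cluster 38 in each library, and Tagln also from cluster 32 in the ErbB2 inhibitor, FGFR inhibitor and DMSO libraries and from endothelium in the mouse. In the ErbB2 inhibitor, FGFR inhibitor and DMSO libraries keratinocytes, among the other classes, gave 15.9%, 32.6% and 22.2% of Tagln.

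To ask whether contractile RNA sat in few cells, cells were counted that held a UMI of at least 3 of the 6 narrowest members, which are Acta2, Tagln, Myl9, Cnn1, Actg2 and Myh11. There were 209 such cells among 31408 in the spiny mouse, of which 149 were in cluster 38, 38 in cluster 32, 9 in cluster 34, 2 in endothelium and 11 elsewhere. In the mouse there were 107 among 8169, with 80 in cluster 38, 14 in cluster 32, 6 in endothelium, 0 in cluster 34 and 7 elsewhere. Contractile cells were rare in both species, and most belonged to cluster 38. Actg2 had no UMI in the spiny mouse and Cnn1 had few, so the rule was in effect stricter there. The counts and shares of the species are therefore not measured alike. T cells held 0 of them in every library, of up to 332 cells in DMSO.

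Within cluster 38, 4 of 4 cells of the ERK inhibitor library, 58.6% of the ErbB2 inhibitor library (exact Clopper-Pearson 95% interval 44.9% to 71.4%), 67.8% of the FGFR inhibitor library (54.4% to 79.4%) and 71.7% of the DMSO library (61.8% to 80.3%) met the rule. The mouse shares were 85.5% under FGF2/Nrg1 (73.3% to 93.5%) and 91.7% under PBS (77.5% to 98.2%). All intervals within a species overlapped. With each cell thinned to 1000 UMIs the shares were 100%, 49.1%, 62.2% and 54.8% in the ERK inhibitor, ErbB2 inhibitor, FGFR inhibitor and DMSO libraries, 73.1% under FGF2/Nrg1 and 74.3% under PBS. All 6 narrow members were read together in 14 of 55 cells under FGF2/Nrg1 and in 11 of 36 under PBS.

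Within cluster 32, 0 of 5 cells of the ERK inhibitor library met the rule, with an upper limit of 52.2%. The rule was met by 13.7% of the ErbB2 inhibitor library (8.35% to 20.8%), 18.4% of the FGFR inhibitor library (7.74% to 34.3%) and 8.07% of the DMSO library (4.37% to 13.4%). The mouse shares were 7.19% under FGF2/Nrg1 (3.64% to 12.5%) and 9.38% under PBS (1.98% to 25.0%). Thinned to 1000 UMIs they were at most 0.763% in any library. The cells of this cluster were deep, with medians of 3044, 7866, 7656.5 and 5772 UMIs in the ERK inhibitor, ErbB2 inhibitor, FGFR inhibitor and DMSO libraries, 11177 under FGF2/Nrg1 and 4203 under PBS. At 1000 UMIs a cell, co-detection of 3 members was therefore near the limit of what could be seen in cluster 32, while it remained common in cluster 38.

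The contractile cells of the 2 clusters carried different markers. In cluster 32 the fibroblast list summed to 43125 CPM and the mural list to 310 CPM in the 38 spiny mouse cells, and to 31752 and 321 CPM in the 14 mouse cells. Mural UMIs outnumbered fibroblast UMIs in 0 of 38 and 0 of 14 of them, and in 0 of 297 and 0 of 171 of the cluster's other cells. In cluster 38 the mural list summed to 8967 CPM and the fibroblast list to 3301 CPM in the 149 spiny mouse cells, and in the 80 mouse cells the mural list summed to 7680 CPM and the fibroblast list to 9161. Mural UMIs outnumbered fibroblast UMIs in 120 of 149 and 54 of 80 cells, and in 57 of 71 and 4 of 11 of the other cells of cluster 38. By these lists, which hold none of the 10 genes, the cells counted in cluster 32 were not mural, like the rest of their cluster. As all genes shaped the clusters, the lists describe the clusters and give no separate evidence on the counted cells.

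**Figure D3:**
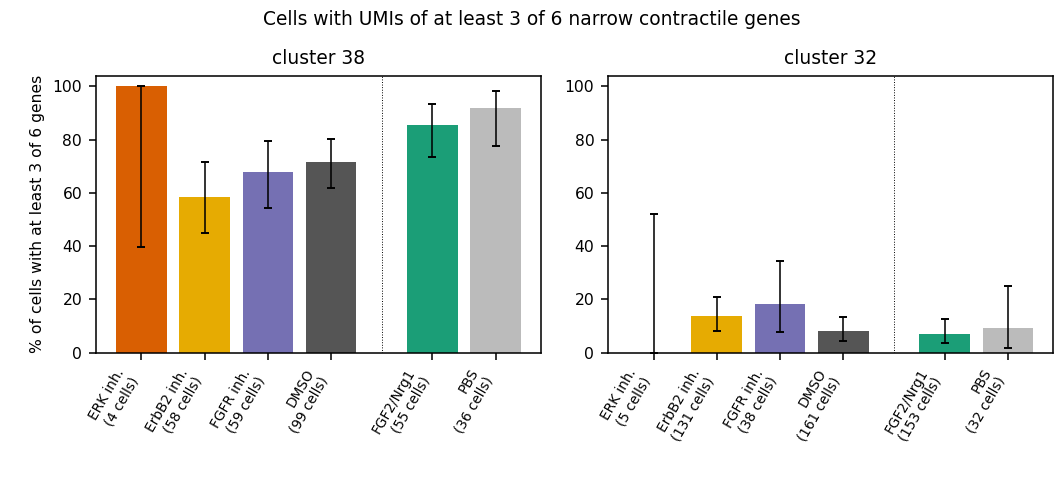
Percent of the cells of clusters 38 and 32 in each library with a UMI of at least 3 of 6 narrow members, at full depth. The rule is in effect stricter in the spiny mouse, where Actg2 had no UMI and Cnn1 had few. Bars are the shares and whiskers exact 95% Clopper-Pearson intervals, and a dotted line parts the spiny mouse from the mouse; cluster 38 lay between 58.6% and 100%, and cluster 32 between 0% and 18.4%.

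Cluster 38 itself was mixed in its mural genes. A UMI of Myh11, the smooth muscle gene, was found in 29 of 58 cells of the ErbB2 inhibitor library, 27 of 59 of the FGFR inhibitor library and 48 of 99 of the DMSO library. A UMI of the pericyte genes Kcnj8, Abcc9 or Higd1b was found in 53, 45 and 71 cells of those libraries, and both in 26, 18 and 34. In the mouse, Myh11 was found in 44 of 55 cells under FGF2/Nrg1 and 33 of 36 under PBS, pericyte genes in 28 and 18, and both in 19 and 16. In the ERK inhibitor library 3 of 4 cells held Myh11 and 0 of 4 held a pericyte gene. In the ErbB2 inhibitor, FGFR inhibitor and DMSO libraries more cells of the cluster thus held a UMI of a pericyte gene than of Myh11. In both mouse libraries more cells held Myh11. A UMI of any of several genes is found more easily than a UMI of a single gene. These counts therefore do not give the shares of pericytes and smooth muscle cells, and the species were not compared by them.

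The comparison of libraries asks whether blocking ERK, ErbB2 or FGFR signalling in the spiny mouse, or supplying FGF2/Nrg1 in the mouse, went with a different contractile RNA level in a given class. Ratios are log2 of the treated over the control CPM with 1 UMI added to each count, for genes with at least 30 UMIs over both libraries. A gene is counted as higher or lower when it passed 1.5-fold, and intervals are exact conditional binomial intervals for counting error. The 3 inhibitor comparisons share the DMSO library. Members under 30 UMIs were not measured. They were, in the spiny mouse, Cnn1, Cnn2 and Actg2 in cluster 38, and also Myh11 in cluster 32 and endothelium, and in the mouse Cnn1, Actg2 and Myh11 in cluster 32 and endothelium.

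**Figure D4:**
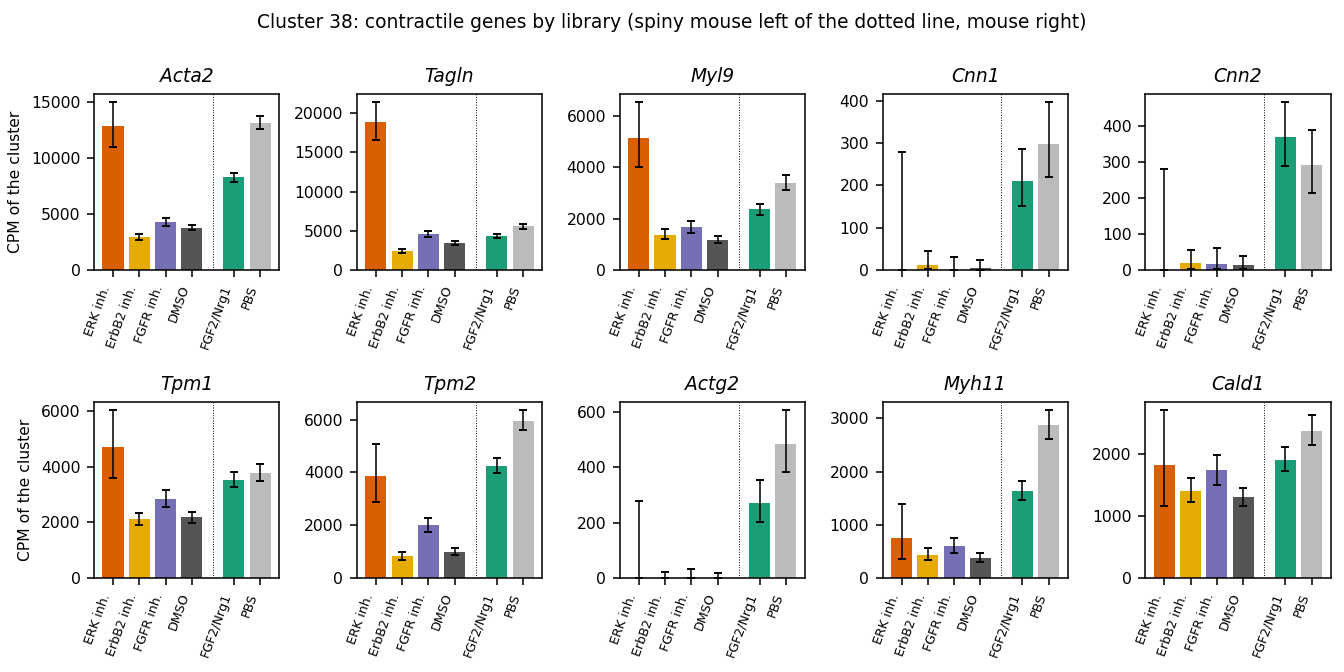
Level of the 10 genes in cluster 38 of each library in CPM, 1 panel per gene with its own axis from 0; whiskers are exact 95% Poisson intervals and a dotted line parts the spiny mouse from the mouse. The ERK inhibitor library, from 4 cells, stood highest among the spiny mouse libraries for Acta2, Tagln, Myl9 and both tropomyosins, and FGF2/Nrg1 stood below PBS for Acta2, Myh11 and Actg2.

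In mouse cluster 38, Acta2, Myh11 and Actg2 were lower past 1.5-fold in the FGF2/Nrg1 library than in the PBS library. Of the 10 members measured, these 3 were lower and 0 higher, with a median of -0.49 that turned to 0.074 without keratinocyte-rich cells. Over all genes measured in the class, 9.18% were lower and 12.4% higher, with a median of 0.07. Acta2 had 8283 CPM under FGF2/Nrg1 and 13152 under PBS, a log2 ratio of -0.67 (interval -0.76 to -0.57). Myh11 had 1637 and 2877 CPM, a ratio of -0.81 (-1.02 to -0.60), and Actg2 had 272 and 486 CPM, a ratio of -0.83 (-1.37 to -0.31). Tagln (-0.36), Myl9 (-0.52), Tpm2 (-0.49), Cald1 (-0.31) and Cnn1 (-0.50, -1.14 to 0.13) had values below 0 and Tpm1 lay at -0.10, all inside 1.5-fold, while Cnn2 lay at 0.33.

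The mouse result rested on how cells were weighed. With cells thinned to 1000 UMIs, Acta2 was at -0.28 and Myh11 at -0.23, and with the mean over cells they were at -0.43 and -0.38, all inside 1.5-fold. Actg2 stayed past 1.5-fold in both settings, at -0.96 and -0.65. Without cells in which keratinocyte markers outnumbered each other list, which left 47 of 55 under FGF2/Nrg1 and 22 of 36 under PBS, Acta2 was at -0.15 and Actg2 at 0.37. The 5 cells richest in Acta2 held 40.5% of its UMIs under FGF2/Nrg1 and 56.0% under PBS. The mural list made up 0.921% of cluster 38 UMIs under FGF2/Nrg1 and 0.653% under PBS, and the keratinocyte list 0.352% and 0.366%.

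In cluster 38 of the FGFR inhibitor library, 2 of 7 members measured were higher than in DMSO and 0 lower, with a median of 0.42. Over all genes measured, 14.1% were higher and 8.44% lower, with a median of 0.03. Tpm2 had 1989 CPM in the FGFR inhibitor library and 993 in DMSO, a ratio of 1.0 (0.73 to 1.27). Myh11 had 601 and 373 CPM, a ratio of 0.69 (0.21 to 1.16). The other 5 lay at 0.18 (Acta2), 0.38 (Tpm1), 0.41 (Tagln), 0.42 (Cald1) and 0.51 (Myl9). Keratinocyte markers made up 1.537% of the cluster's UMIs in the FGFR inhibitor library and 2.649% in DMSO. Without keratinocyte-rich cells, which left 19 of 59 in the FGFR inhibitor library and 5 of 99 in DMSO, Tpm2 was at -0.53 and Myh11 at -0.25. The part of free keratinocyte RNA in these values was not tested beyond that.

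In cluster 38 of the ErbB2 inhibitor library, 0 of 7 members passed 1.5-fold against DMSO, with a median of -0.04. Over all genes measured, 13.8% were higher and 8.05% lower, with a median of 0.04. Tagln had 2460 CPM in the ErbB2 inhibitor library and 3405 in DMSO, a ratio of -0.47 (-0.65 to -0.29), and Acta2 had 2951 and 3795, a ratio of -0.36 (-0.53 to -0.20). Myl9 and Myh11 both lay at 0.24, Cald1 at 0.12, Tpm1 at -0.04 and Tpm2 at -0.26. No member therefore differed by the fold used here, and for Acta2 the interval ends inside 1.5-fold. Keratinocyte markers made up 1.910% of the cluster's UMIs in the ErbB2 inhibitor library and 2.649% in DMSO.

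In cluster 38 of the ERK inhibitor library, 6 of 7 members were higher than in DMSO, with a median of 1.77, but over all genes measured 33.0% were higher and 23.9% lower in this class of 4 cells. Tagln had 18859 CPM in the ERK inhibitor library and 3405 in DMSO, a ratio of 2.47 (2.26 to 2.68), and Acta2 had 12876 and 3795, a ratio of 1.77 (1.52 to 2.0). Myl9 lay at 2.15, Tpm2 at 1.98, Myh11 at 1.14 (-0.09 to 1.97) and Tpm1 at 1.13, while Cald1 lay at 0.54. The richest of the 4 cells held 42.2% of the Tagln UMIs. The mural list made up 0.318% of their UMIs and 0.703% in DMSO, and the 4 cells had 0 UMIs of Rgs5, Higd1b, Kcnj8 and Abcc9. The part of a different mix of cells in these ratios was not tested.

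**Figure D5:**
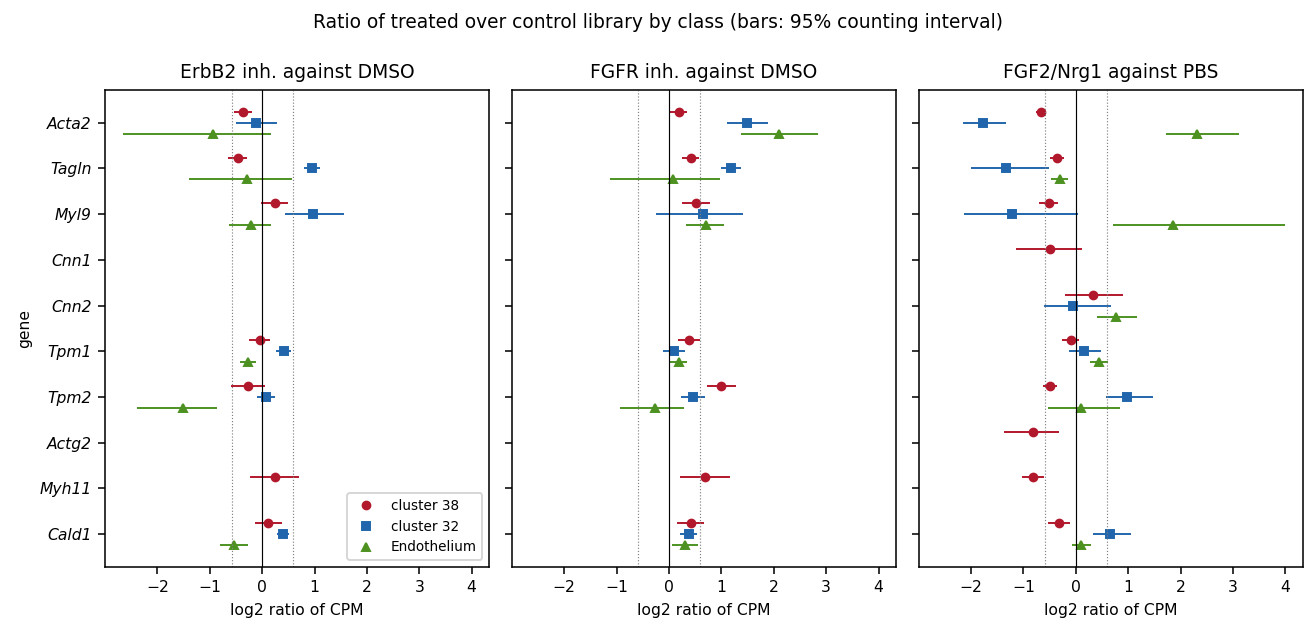
Log2 ratio of treated over control CPM for each measured member in cluster 38, cluster 32 and endothelium, for the ErbB2 inhibitor and FGFR inhibitor against DMSO and FGF2/Nrg1 against PBS; bars are exact 95% counting intervals and dotted lines mark 1.5-fold. Acta2 lay at 1.5 in cluster 32 under the FGFR inhibitor and at -1.77 there under FGF2/Nrg1.

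In cluster 32, the matrix-rich fibroblasts, Tagln was higher under both the ErbB2 and the FGFR inhibitor than under DMSO. It had 975 UMIs in the ErbB2 inhibitor library, 371 in the FGFR inhibitor library and 548 in DMSO, or 935, 1106 and 485 CPM. The ratios were 0.94 (0.79 to 1.10) for the ErbB2 inhibitor and 1.19 (1.0 to 1.38) for the FGFR inhibitor. Tagln was read in 55.0% of the cells under the ErbB2 inhibitor, 60.5% under the FGFR inhibitor and 47.8% under DMSO, against 0.781%, 1.82% and 3.31% of T cells in those libraries. The 5 cells richest in Tagln held 42.6% of its UMIs under the ErbB2 inhibitor, 69.0% under the FGFR inhibitor, where the cluster had 38 cells, and 29.9% under DMSO. The ratio passed 1.5-fold under each of the 9 alternatives run for either inhibitor, from 0.75 to 1.0 for the ErbB2 inhibitor and from 0.79 to 1.19 for the FGFR inhibitor.

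Acta2 in cluster 32 set the 2 inhibitors apart in size. It had 105 UMIs in the ErbB2 inhibitor library, 103 in the FGFR inhibitor library and 123 in DMSO, or 101, 307 and 109 CPM. The ratios were -0.11 for the ErbB2 inhibitor and 1.5 (1.10 to 1.89) for the FGFR inhibitor. Acta2 was read in 17.6% of cells under the ErbB2 inhibitor, 39.5% under the FGFR inhibitor and 16.1% under DMSO. The FGFR inhibitor cells were few, and 15 of 38 held the 103 UMIs, with 70.9% of them in the top 5. Over the alternatives the FGFR inhibitor ratio lay between 1.08 and 1.92. Both ratios share the DMSO library, and the 2 inhibitors were not tested against each other.

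Counted over members, 3 of 6 were higher in cluster 32 of the FGFR inhibitor library and 0 lower, with a median of 0.56, where 11.9% of all genes were higher and 9.30% lower with a median of 0.07. Beside Acta2 and Tagln this was Myl9, from 19 UMIs in the FGFR inhibitor library and 42 in DMSO, at 0.65 (-0.26 to 1.42), and at 0.08 with thinned cells. In the ErbB2 inhibitor library 2 of 6 were higher and 0 lower, with a median of 0.40, where 11.6% of all genes were higher and 8.08% lower with a median of 0.08. Beside Tagln this was Myl9, at 73.8 CPM in the ErbB2 inhibitor library and 37.2 in DMSO, a ratio of 0.97 (0.43 to 1.57). The tropomyosins and Cald1 lay between 0.07 and 0.46 in both comparisons.

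Keratinocyte markers made up 0.959% of cluster 32 UMIs under the ErbB2 inhibitor, 1.270% under the FGFR inhibitor and 2.414% under DMSO, and fibroblast markers 4.009%, 4.171% and 3.522%. Without keratinocyte-rich cells, 7 of 131, 2 of 38 and 39 of 161, Tagln lay at 1.0 for the ErbB2 inhibitor and 0.79 for the FGFR inhibitor, and Acta2 at 1.08 for the FGFR inhibitor. These 3 values passed 1.5-fold without those cells.

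Mouse cluster 32 differed in both directions. Of 7 members measured, 2 were higher and 3 lower under FGF2/Nrg1 than under PBS, with a median of -0.05, while 17.8% of all genes were higher and 29.1% lower with a median of -0.15. Acta2 had 188 UMIs in 153 cells under FGF2/Nrg1 and 70 UMIs in 32 cells under PBS, or 99.1 and 335 CPM, a ratio of -1.77 (-2.16 to -1.34). Tagln had 41.1 and 101 CPM, a ratio of -1.34 (-2.00 to -0.52), and Myl9 had 22.1 and 47.9, a ratio of -1.22 (-2.13 to 0.05). Tpm2 had 442 CPM under FGF2/Nrg1 and 220 under PBS, a ratio of 0.97 (0.57 to 1.46), and Cald1 had 521 and 326, a ratio of 0.66 (0.32 to 1.05). The 3 genes of the smooth muscle set and the 2 broad members thus lay on opposite sides by CPM, with Tpm1 at 0.15 and Cnn2 at -0.05 between them. The split did not hold under every alternative run. Acta2, Tagln and Myl9 reached up to 0.34, 0.77 and 0.89, and Tpm2 and Cald1 went down to 0.30 and 0.47, inside 1.5-fold.

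The PBS level rested on few cells. The 70 Acta2 UMIs came from 7 of 32 cells, with 97.1% in the top 5, and the 21 Tagln UMIs from 4 cells, with 66.7% in 1 of them. For Tpm2 and Cald1 the top 5 cells under PBS held 76.1% and 63.2% of the UMIs. Acta2 was read in 49 of 153 cells under FGF2/Nrg1 and in 7 of 32 (21.9%) under PBS, at median depths of 11177 and 4203 UMIs. Without the cell of each library with most member UMIs, Tagln lay at 0.04 and Acta2 at -1.42. The fibroblast list made up 1.632% of cluster UMIs under FGF2/Nrg1 and 7.033% under PBS, and scaled to that list Acta2 lay at 0.34 and Tagln at 0.77. Fewer fibroblast transcripts per cell and another mix of cells cannot be told apart in this class.

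In cluster 32 of the ERK inhibitor library, 5 cells held 0 UMIs of Acta2 and 6 each of Tagln and Myl9. Of the broad members they held 15 UMIs of Tpm1, 30 of Tpm2 and 15 of Cald1. Over all genes 35.0% were higher and 19.9% lower there than in DMSO, so these values are too few to place the library.

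Cluster 34 had the levels of a mixed group. Under the ErbB2 inhibitor Tagln had 388 CPM, against 166 in DMSO, a ratio of 1.21 (0.70 to 1.77), and Acta2 had 109 CPM, against 177, a ratio of -0.68 (-1.44 to 0.01). Both rested on few cells. The 96 Tagln UMIs under the ErbB2 inhibitor came from 29 of 143 cells, with 65.6% in the top 5. In DMSO the 48 Acta2 UMIs came from 12 of 136 cells, with 83.3% in the top 5. Cald1 lay at 0.46, Tpm1 at -0.09 and Tpm2 at -0.10. Thus 1 was higher and 1 lower of 5 members, where 14.5% of all genes were higher and 8.89% lower. Under the FGFR inhibitor 0 of 5 passed 1.5-fold, from -0.54 (Acta2) to 0.24 (Tagln), where 16.1% were higher and 14.1% lower. In the mouse 0 of 3 did, Cald1 at 0.30, Cnn2 at 0.18 and Tpm1 at -0.12, where 10.3% were higher and 8.39% lower.

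Endothelium, the inner lining of vessels, carried Tagln in the mouse in 231 of 940 cells under FGF2/Nrg1 and 85 of 346 under PBS. These were spread unevenly over its clusters, and its Acta2 and Myl9 lay in few cells. Under FGF2/Nrg1, 3 of 7 members were higher than under PBS and 0 lower, with a median of 0.44, where 4.41% of all genes were higher and 9.86% lower with a median of -0.08. Acta2 had 310 UMIs under FGF2/Nrg1 and 20 under PBS, or 63.2 and 12.2 CPM, a ratio of 2.31 (1.72 to 3.11). It came from 32 of 940 cells under FGF2/Nrg1, with 74.2% of the UMIs in the top 5 cells and 70 in 1 of them, and from 14 of 346 cells under PBS. The share of endothelial cells with a UMI was thus small in both libraries, and the difference lay in a handful of Acta2-rich cells.

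Myl9 in mouse endothelium had 53 UMIs under FGF2/Nrg1 and 4 under PBS, a ratio of 1.86 (0.71 to 4.08), with 26 of the 53 in 1 cell. Cnn2, the third member past 1.5-fold, had 354 UMIs under FGF2/Nrg1 and 69 under PBS, a ratio of 0.76 (0.41 to 1.17). Its ratio passed 1.5-fold under every one of the 9 alternatives run, between 0.68 and 0.94. Tagln had 219 CPM under FGF2/Nrg1 and 271 under PBS, a ratio of -0.31, and Tpm1 lay at 0.44, while Tpm2 and Cald1 lay at 0.10 each.

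In spiny mouse endothelium the FGFR inhibitor library had 2 of 6 members higher than DMSO and 0 lower, where 15.2% of all genes were higher and 9.47% lower. Acta2 had 37 UMIs in the FGFR inhibitor library and 31 in DMSO, or 50 and 11.7 CPM, a ratio of 2.09 (1.37 to 2.84), but the 37 came from 7 cells with 94.6% in the top 5, and without keratinocyte-rich cells the ratio was -1.97, a value that rests on 71 of 240 cells in the FGFR inhibitor library and 8 of 977 in DMSO. Myl9 had 123 and 75.9 CPM, a ratio of 0.70 (0.32 to 1.06). Cald1 lay at 0.31, Tpm1 at 0.18, Tagln at 0.07 and Tpm2 at -0.27. The ErbB2 inhibitor library had 0 of 6 higher and 2 lower, Acta2 at -0.93 (-2.66 to 0.17) and Tpm2 at -1.52, where 10.0% of all genes were higher and 8.25% lower, and Tpm2 was at the level of free RNA. Cald1 lay at -0.53, Tagln at -0.29, Tpm1 at -0.27 and Myl9 at -0.22 there. The ERK inhibitor library, with 44 endothelial cells, had 4 of 6 lower (Acta2, Tagln, Myl9 and Tpm2), where 33.3% of all genes were higher and 18.6% lower. Its endothelium held 0 UMIs of Acta2, 0 of Tagln, 3 of Myl9 and 1 of Tpm2, too few to show a lower level. By the rule 3 of the 4 were at the level of free RNA, which a count of 0 can also meet. Tpm1 lay at -0.56 and Cald1 at -0.20. Keratinocyte markers made up 2.469%, 1.038% and 2.976% of endothelial UMIs in the ErbB2 inhibitor, FGFR inhibitor and DMSO libraries.

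Keratinocytes were the main carriers of the tropomyosins by count. Tpm2 was lower under the ErbB2 inhibitor than under DMSO in the outer root sheath (-1.61), and in basal interfollicular keratinocytes it lay at -0.75 (-0.88 to -0.63). In the outer root sheath 2 of 3 members measured were lower and 0 higher, where 7.44% of all genes were lower and 8.49% higher, the other being Cald1 at -2.83. Under the FGFR inhibitor the same 2 members of 3 were lower there, Tpm2 at -1.16 and Cald1 at -1.61 (-2.55 to -0.89), where 7.25% of all genes were lower and 8.33% higher. In the mouse outer root sheath FGF2/Nrg1 had 2 of 4 higher and 0 lower, Tpm1 at 1.15 (0.91 to 1.41) and Cald1 at 0.92, where 6.40% were higher and 7.66% lower.

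Some keratinocyte values were single cells. In hair germ and outer bulge cells Tagln had 164 UMIs in 8 cells of the FGFR inhibitor library, 89 of them in 1 cell, and 53 UMIs in 30 cells of DMSO, a ratio of 2.50 (2.07 to 3.00). In cycling basal keratinocytes it had 173 UMIs under the FGFR inhibitor, 160 of them in 1 cell, a ratio of 1.81 to DMSO. The same class of the mouse had 133 Acta2 UMIs under FGF2/Nrg1 and 15 under PBS, and 13 Myh11 UMIs under FGF2/Nrg1 in 1 cell. The member counts of these classes therefore describe a few cells each.

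The other lists of contractile and matrix genes, chosen with earlier results of these data known, gave the setting of cluster 32. Under the FGFR inhibitor 4 of 10 measured genes of serum response factor, its MRTF partners and focal adhesions were higher than in DMSO and 1 lower, with a median of 0.50. Among them were Ccn1, a matricellular target of the pathway, at 1.05, the crosslinker Actn1 at 0.80 and Fhl2 at 0.75, while vinculin (Vcl) was at -0.77. Both further smooth muscle genes measured were higher, the myosin phosphatase inhibitor Ppp1r14a at 1.14 and smoothelin (Smtn) at 0.64. Of the non-muscle counterparts 3 of 10 were higher and 0 lower, with a median of 0.23: Tagln2 at 0.85, Cnn3 at 0.80 and the non-muscle myosin Myh9 at 0.65. Of the myofibroblast matrix 1 of 7 was higher (Tnc, tenascin C, at 0.70) and 0 lower. Against 11.9% of all genes higher, the first 3 lists had larger shares, which rest on 38 cells.

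Under the ErbB2 inhibitor the lists of cluster 32 are read beside the 11.6% of all genes that were higher and the 8.08% that were lower. In the serum response factor list 3 of 12 were higher and 0 lower, with a median of 0.32: Ccn2 at 0.77, Pdlim7 at 0.65 and Mrtfa at 0.61. Of 8 matrix genes, 1 was higher, which was Cthrc1, a marker of wound fibroblasts, with 635 UMIs in the ErbB2 inhibitor library and 341 in DMSO and a ratio of 1.01. Of 10 non-muscle counterparts, 1 was higher (Cnn3, 0.60), and 0 of 2 further smooth muscle genes passed 1.5-fold.

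Under FGF2/Nrg1 the matrix list of mouse cluster 32 had 6 of 8 genes lower than under PBS and 1 higher, with a median of -2.22, where 29.1% of all genes were lower and 17.8% higher. Col1a1 had 3220 CPM under FGF2/Nrg1 and 18515 under PBS, a ratio of -2.52, thrombospondin 1 (Thbs1) lay at -4.03, Col3a1 at -2.34 and Cthrc1 at -2.27. The serum response factor list had 1 of 12 higher and 4 lower with a median of -0.29, near those shares, among them Pdlim7 at -1.27. The non-muscle counterparts had 0 of 11 past 1.5-fold. Where Acta2 and Tagln were lower in this class, fibrillar collagen was lower by more, and the non-muscle actin and myosin genes were not past 1.5-fold.

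In cluster 38 the FGFR inhibitor library had 5 of 9 measured genes of the serum response factor list higher than DMSO and 0 lower, with a median of 0.60, and 2 of 4 further smooth muscle genes higher with a median of 0.67, where 14.1% of all genes were higher. The median of the 10 genes' measured members in that comparison was 0.42 and turned to -0.079 without keratinocyte-rich cells. The ErbB2 inhibitor library had 1 of 7 higher and 1 lower in the first list, where 13.8% of all genes were higher and 8.05% lower. Under FGF2/Nrg1 0 of 7 of that list passed 1.5-fold, where 12.4% of all genes were higher and 9.18% lower. Of the skeletal and cardiac paralogues Tpm3 alone was measured in these classes.

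The genes whose levels followed the members most closely were found by Pearson's r of log2(CPM + 10) over classes and libraries with at least 30 cells, 60 points in the spiny mouse and 33 in the mouse. The points share libraries, depth and cell classes, so r is a description. For Acta2 the highest in the spiny mouse were Des (0.94), Tagln (0.93), Rem1 (0.93), Pdgfrb (0.92) and Pcdh18 (0.90), and in the mouse Myl9 (0.95), Rbpms2 (0.94), Actg2 (0.93), Aoc3 (0.93) and Pde3a (0.93). For Tagln they were Acta2 (0.93), Cd248 (0.91), Pcdh18 (0.91), Mrgprf (0.89) and Smarcd3 (0.88) in the spiny mouse, and Mylk (0.97), Mustn1 (0.95), Ppp1r14a (0.93), Tcf15 (0.93) and Gm13889 (0.93) in the mouse. For Tpm2 Tagln led in the spiny mouse (0.85) and Ednra in the mouse (0.88). For Cnn2 the highest were Arpc4 in the spiny mouse (0.70) and Actb in the mouse (0.83), both genes of the general actin cytoskeleton. Ranked by Spearman's correlation, 0 to 2 of the 5 genes of each list stayed.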

How the data were processed

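Single-cell libraries were made from dissociated ear skin with 10x Genomics 3′ v3.1 reagents, per the labels' protocols, and Cell Ranger 6.1.1 with the mouse build GRCm38 (mm10) is named in the submitters' processing notes. The reference behind the spiny mouse counts, any cell filter and any doublet removal are not stated in those sources. The authors deposited a count table of raw UMIs, with a table of library, cluster and cell type for each cell, and no cell was left out. All libraries carry mouse symbols, so spiny mouse values are what was counted under a mouse name. The members and gene lists were chosen with earlier results of these data known.

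Counts were summed per class and library, with dermal sheath, fibroblast and macrophage cells taken by cluster, and divided by the class's UMIs. Every measured member is named in clusters 38 and 32 and endothelium, and in other classes those past the fold or at the ends of the range. Other genes named are up to 4 per list with the largest ratio in the fibroblast cluster, and the 5 most like each of 4 members. A level was called free RNA where it was at most 3 times that of the lowest other class of at least 15 cells and over 10-fold under the highest. Settings tried were thinning, other scalings, means over cells, the count filter, the floor for 0 UMIs and sets of cells left out, of which 2 were chosen after seeing the data. Python 3.11.15, numpy 2.4.6, scipy 1.17.1 and pandas 2.3.3 were used. The ratio, its interval and the 1.5-fold rule were tested on simulated Poisson counts, without spread between cells or animals. Thinning, the free RNA rule and the rule for contractile cells were not part of that test. Depth per library lay between 7429819 and 70058081 UMIs, and intervals cover counting error only. A further gene list is not reported here.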

Additional observations from a re-analysis of the deposited data

Results flagged for a closer look

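Acta2 differed between cell classes of the mouse under the same contrast. Its log2 ratio of FGF2/Nrg1 over PBS was 2.31 in endothelium, -0.67 in cluster 38 and -1.77 in cluster 32. With 1 library per group the difference between classes was not tested. The endothelial value lay in few cells, with 70 of 310 UMIs in 1 cell under FGF2/Nrg1, and the cluster 32 value in few cells under PBS, with 97.1% of 70 UMIs in 5 cells.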

How the results depend on the processing

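No paired analysis was possible because each group is 1 library. Medians over the members kept their direction and moved by less than their spread in 94 of 108 recomputations. That total pools settings that hardly alter the values with others, so it does not show how firm a median is. All 12 medians stayed without the count filter, with the floor for 0 UMIs and with median-of-ratios scaling. Scaled to the class's own marker list, 8 moved and 4 stayed. Scaled to the class's own marker list, a setting chosen after seeing the data, the median moved to -0.76 (cluster 38, ErbB2 inhibitor), 0.017 (cluster 38, FGFR inhibitor), -0.99 (cluster 38, FGF2/Nrg1), 2.05 (cluster 32, FGF2/Nrg1), -0.54 (endothelium, FGFR inhibitor) and, for the ERK inhibitor, 2.91 in cluster 38, -2.41 in cluster 32 and -2.55 in endothelium. There Myl9 turned to -0.077 (endothelium, FGFR inhibitor), and in cluster 32 under FGF2/Nrg1 Acta2 turned to 0.34, Tagln to 0.77 and Myl9 to 0.89. Without keratinocyte-rich cells medians were -0.079 (cluster 38, FGFR inhibitor), 0.074 (cluster 38, FGF2/Nrg1) and -2.81 (endothelium, ERK inhibitor), endothelial values that rest on 8 of 977 DMSO cells; Tpm2 turned to -0.53 and Myh11 to -0.25 in cluster 38 and Acta2 to -1.97 in endothelium for the FGFR inhibitor, and Actg2 to 0.37 in cluster 38 for FGF2/Nrg1. Thinned, the median was -0.13 in endothelium for the ErbB2 inhibitor, and for the ERK inhibitor it turned to 0.55 in cluster 32 (Acta2 0.76, Tpm1 0.33) and 0.17 in endothelium (Acta2 0.56, Tagln 0.78, Myl9 0.14, Tpm2 0.20). With the floor for 0 UMIs, Acta2 was 0.42 and Tagln 0.049 in endothelium of that library. Without the cell richest in members Tagln was 0.040 in cluster 32 for FGF2/Nrg1. The cause was not tested. Of the ratios of single members, 563 stayed, 146 moved and 17 reversed, again pooled over settings. All 81 stayed without the count filter, while under the marker list scaling 26 stayed, 51 moved and 4 reversed. Few cells in the ERK inhibitor library, 4 or 5 per stromal cluster, and the lack of replicates limit every comparison.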

Other observations

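Mouse endothelium carried Tagln unevenly. In endothelial cluster 8, led by the venular genes Ackr1, Selp and Sele, Tagln had 325 CPM under FGF2/Nrg1 and 415 under PBS and was read in 177 of 465 and 70 of 176 cells. In cluster 17, led by the lymphatic genes Prox1 and Ccl21a, it had 101 CPM under FGF2/Nrg1 and 3.37 under PBS, and in cluster 29, led by Esm1 and Gpihbp1, 89.2 and 197 CPM. In the spiny mouse cluster 8 had 0, 16.3, 10.7 and 11.7 CPM in the ERK inhibitor, ErbB2 inhibitor, FGFR inhibitor and DMSO libraries. In cluster 8 Acta2 had 72 UMIs under FGF2/Nrg1 and 1 under PBS.

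Myl9 was read in a few cells of cluster 45, which carries the authors' resident macrophage label and was led by the mast cell genes Mcpt4, Cpa3 and Cma1 and the platelet genes Pf4 and Treml1 in the spiny mouse. It had 13 UMIs in 1 of 4 cells of the FGFR inhibitor library, 18 UMIs in 3 of 94 cells of DMSO and 0 UMIs in 29 cells of the ErbB2 inhibitor library. Under FGF2/Nrg1 it had 9 UMIs in 2 of 17 cells and under PBS 0 in 3 cells.

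The mouse cells labelled circulating monocytes had neutrophil genes such as S100a8 and S100a9 among their leading genes. They held Acta2 in 37 of 611 cells under FGF2/Nrg1 (6.06%) and in 22 of 307 under PBS (7.17%). The levels were 55.1 and 46.1 CPM, with no more than 2 UMIs per cell. Mouse T cells had it in 1.47% of cells under FGF2/Nrg1 and in 0 of 36 under PBS. Cnn2 was read in 56.6% of mouse T cells under FGF2/Nrg1 and 69.4% under PBS, at 373 and 421 CPM.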
